A study of Mus musculus with 16 samples.

Results

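Proenkephalin (Penk) and the 3 classical opioid receptor genes, Oprd1, Oprk1 and Oprm1, were followed through 16 RNA-Seq libraries from the apex of the mouse heart. They were 4 of the 55487 genes of the deposited count table and were found by matching the gene symbols to Ensembl gene identifiers. Penk was chosen by its measured fold change, as one of the larger falls after transverse aortic constriction (TAC) in knockout hearts, so its values in that comparison describe the choice and were not tested. The 3 receptors were picked for their biology, to ask whether transcripts of any of them were detected in this tissue.

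TAC ties the transverse aorta around a needle that is then withdrawn, which leaves a narrowing that the left ventricle has to pump against, and the sham operation leaves out the ligature. Ctrl mice were labelled WT, and KO mice had Cardinal (Gm12295), a cardiac long noncoding RNA, knocked out with CRISPR/Cas9. All mice were male per the study's methods, their ages are not given in the sources used here, and hearts were collected 4 weeks after surgery. The 2 genotypes and 2 operations gave 4 groups of 4 libraries (Ctrl sham, Ctrl TAC, KO sham and KO TAC), and each library carried its own animal number. Per the labels RNA was poly(A)-selected and sequenced as pairs of 150-base reads.

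Penk encodes the precursor from which prohormone convertases and carboxypeptidase E cut the pentapeptides Met-enkephalin and Leu-enkephalin. Enkephalins act mainly on the delta receptor (Oprd1) and also on the mu receptor (Oprm1), while the kappa receptor (Oprk1) prefers dynorphins. All of these receptors couple to inhibitory G proteins, which lower cyclic AMP and open inwardly rectifying potassium channels. Heart muscle is a known site of Penk mRNA outside the nervous system, and membrane peptidases such as neprilysin break the released peptides down.

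Penk (ENSMUSG00000045573) lies on the minus strand of chromosome 4 at 4133531 to 4138819 in GRCm38, and the coding transcript used here spans 2 exons and 268 codons. Its protein repeats the enkephalin core, and the coding sequence of all 7 copies is shown because these repeats are what make Penk an opioid gene. The capitals mark the 15 bases that encode the pentapeptide, and the lower-case bases are the 6 on each side, which in most copies hold the pairs of lysine or arginine codons where the precursor is cut. All lie in exon 2 and are written 5′ to 3′ along the transcript, from the GENCODE M21 transcript sequence.
Copy 1, Met-enkephalin, codons 100 to 104, chr4:4134328-4134354: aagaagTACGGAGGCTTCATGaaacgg
Copy 2, Met-enkephalin, codons 107 to 111, chr4:4134307-4134333: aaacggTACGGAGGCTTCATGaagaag
Copy 3, Met-enkephalin, codons 136 to 140, chr4:4134220-4134246: aagaggTATGGCGGCTTCATGaagaag
Copy 4, Met-enkephalin, codons 187 to 191, chr4:4134067-4134093: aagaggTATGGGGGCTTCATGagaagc
Copy 5, Met-enkephalin, codons 211 to 215, chr4:4133995-4134021: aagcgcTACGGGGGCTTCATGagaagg
Copy 6, Leu-enkephalin, codons 231 to 235, chr4:4133935-4133961: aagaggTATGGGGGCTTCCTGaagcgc
Copy 7, Met-enkephalin, codons 262 to 266, chr4:4133842-4133868: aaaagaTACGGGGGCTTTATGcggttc

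Of the 7 copies, 6 encode the core sequence of Met-enkephalin and copy 6 encodes that of Leu-enkephalin. Copies 4 and 7 have the pair of basic codons before the core and not after it, so their label names the core only. The count of Penk sums reads over the whole gene and does not separate these copies.

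The deposited counts per library totalled 53169437 to 79404714, with 24458 to 26388 genes at 1 count or more. Mitochondrial genes took 21.9% to 28.8% of the counts. No pair of libraries held identical counts. All 6 cardiomyocyte markers were found, and summed to 34080 to 51889 CPM, where CPM is the count per 1e+06 counts of the library total scaled by the TMM method. Cardinal itself stood at 3.24 to 3.86 CPM in Ctrl sham, 0.297 to 0.553 CPM in KO sham and 2.69 to 8.02 CPM in Ctrl TAC. In the KO TAC group it was at 0.371, 0.276 and 0.368 CPM in libraries 1 to 3 and at 4.55 CPM (377 counts) in the library labelled KO TAC 4, which goes against that label. Ctrl TAC 2 stood apart in its nerve and fat genes. Its 6 neuron markers summed to 16.3 CPM and its 6 adipocyte markers to 3.33 CPM. In the other libraries these sums were at most 8.68 and 0.875 CPM. Snap25 gave most of the neuron excess, with 501 counts in Ctrl TAC 2 against a median of 30 over the 16 libraries. The values of Penk and Oprd1, the counts of calls and the genes with the clearest changes are also given without these libraries.

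Penk was lower in every TAC heart than in every sham heart, and the fall in Ctrl hearts was larger than the spread between mice. In Ctrl sham, Penk was at 7.50, 8.17, 7.40 and 7.35 CPM, from 539, 523, 438 and 376 counts. In Ctrl TAC it was at 1.92, 3.08, 3.03 and 1.49 CPM, from 109, 206, 199 and 107 counts. The groups did not overlap, the highest Ctrl TAC heart lying well below the lowest Ctrl sham heart, and the TAC hearts were more scattered in proportion to their mean.

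The Ctrl sham mean was 7.61 ± 0.381 CPM and the Ctrl TAC mean 2.38 ± 0.798 CPM (SD, n = 4). Ctrl TAC hearts thus held 31.3% of the sham level, a 3.20-fold fall. In the edgeR quasi-likelihood test over 18275 genes Penk had a log2 fold change of -1.68 with an SE of 0.22 (adjusted p = 4.02e-05). In that contrast 20.0% of all genes tested were called at an adjusted p under 0.05, 9.60% of them lower in TAC. Penk was the 41st largest fall among the 1754 genes called lower.

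Of the 2 libraries that stood apart, only Ctrl TAC 2 belongs to this contrast, and it did not carry the result. With Ctrl TAC 2 left out the log2 fold change became -1.83 (adjusted p = 4.00e-05 by edgeR). With both Ctrl TAC 2 and the library labelled KO TAC 4 left out, it was again -1.83 (adjusted p = 9.50e-05 by edgeR). The latter library is in neither group compared, so leaving it out could alter little beyond the shared estimate of the spread. In the 8 Ctrl libraries alone the log2 fold change was -1.68 (adjusted p = 0.000487 by edgeR). The animal numbers of Ctrl TAC 2, 3 and 4 form a series starting with 25 that holds no sham heart, so no comparison within it was possible. The 1 Ctrl TAC heart outside it, at 1.92 CPM, also lay below all Ctrl sham hearts. With a term for this series the log2 fold change was -1.88 (adjusted p = 0.000872 by edgeR). The series also holds the library labelled KO TAC 4, so its term is set in part by the KO TAC values that chose Penk. That fit is therefore not independent of the choice.

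In KO sham, Penk was at 7.68, 6.51, 6.06 and 8.93 CPM, from 486, 372, 352 and 508 counts. The mean was 7.29 ± 1.29 CPM (SD, n = 4), 95.9% of the Ctrl sham mean, and the KO sham values extended both above and below the Ctrl sham values. In KO TAC, Penk was at 1.23, 1.15 and 0.568 CPM in libraries 1 to 3 and at 1.06 CPM in the library labelled KO TAC 4, from 83, 71, 37 and 88 counts. The mean was 1.00 ± 0.299 CPM (SD, n = 4), and 0.984 ± 0.363 CPM without the library labelled KO TAC 4 (n = 3).

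Under the labels as given, each of these KO TAC values lay below the lowest Ctrl TAC value, 1.49 CPM. The highest of them was 1.23 CPM. The library labelled KO TAC 4, at 1.06 CPM of Penk, had Cardinal at 4.55 CPM, within the Ctrl TAC range. If it were a Ctrl TAC heart, its Penk would lie below that of KO TAC 1 and 2 and the groups would overlap. How many of all genes separate these groups is not given here. Penk was chosen for its fall in KO hearts, so the following are descriptions with no test. KO TAC hearts held 13.8% of the KO sham level, a 7.27-fold fall and a log2 fold change of -2.86. In that contrast 34.3% of all genes were called. KO TAC hearts held 42.2% of the Ctrl TAC level, with a log2 fold change of -1.24. The KO TAC group shares its libraries across both comparisons, and the difference between the log2 TAC effects of the genotypes was -1.18. With the library labelled KO TAC 4 left out, KO TAC was at 13.5% of KO sham and 41.4% of Ctrl TAC, and the 3 log2 values became -2.89, -1.27 and -1.21. With Ctrl TAC 2 left out they were -2.86, -1.09 and -1.03. KO sham and Ctrl sham differed by -0.06 on the log2 scale. From high to low the group means ran Ctrl sham, KO sham, Ctrl TAC, KO TAC, and the first 2 differed by less than the SD of either.

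**Figure D1:**
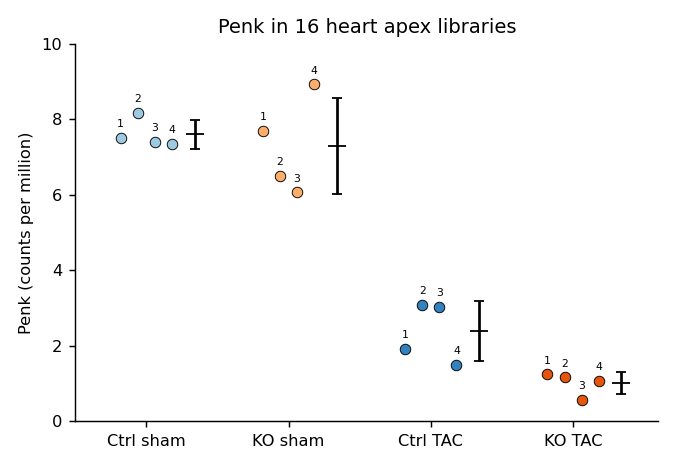
Penk in each library, in CPM on a linear axis from 0, with numbers for the libraries of each group and bars for the mean ± SD (n = 4). All 8 sham hearts are at 6.06 CPM or higher and all 8 TAC hearts at 3.08 CPM or lower.

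Per kilobase of exon (RPKM), Penk averaged 4.66 in Ctrl sham, 4.46 in KO sham, 1.46 in Ctrl TAC and 0.614 in KO TAC. In Ctrl sham this level was above that of 70.2% of the genes that passed the filter on low counts. Penk was thus a mid-range transcript of the sham apex and a low one after TAC in KO hearts, where it still had 37 counts or more in every library.

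One annotated gene overlaps Penk. A830012C17Rik (ENSMUSG00000085996) runs on the opposite strand and shares 233 exon bases with it, 14.3% of Penk's exon length, within 4138321 to 4138819, away from the enkephalin copies. Its counts were 4, 12, 13 and 3 in Ctrl sham and 10, 6, 0 and 10 in KO sham. After TAC they were 0, 0, 1 and 0 in Ctrl and 0, 3, 0 and 3 in KO. Every one of these was far below the Penk count of the same library. Whether counting used the strand of a read is not given in the sources used here, and without it reads of the shared stretch cannot be assigned to one gene or the other.

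Markers of other cell types moved in the same hearts. Beside the counts of calls in this and the next paragraph, 10.4% of all genes tested were called higher and 9.60% lower in Ctrl. In KO these shares were 17.8% higher and 16.5% lower. The summed level of 6 cardiomyocyte markers was 44600 to 51889 CPM in Ctrl sham, 45718 to 50869 in KO sham, 39401 to 44004 in Ctrl TAC and 34080 to 35718 in KO TAC, with 4 of 6 called lower in Ctrl and 5 of 6 in KO. The 6 fibroblast markers summed to 486 to 549 CPM in Ctrl sham, 494 to 527 in KO sham, 692 to 991 in Ctrl TAC and 997 to 1174 in KO TAC, with 3 called higher in Ctrl and 6 in KO. The 6 macrophage markers summed to 111 to 143 CPM in Ctrl sham, 106 to 124 in KO sham, 156 to 177 in Ctrl TAC and 162 to 215 in KO TAC, with 3 called higher in Ctrl and 6 in KO.

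The 6 smooth muscle and pericyte markers summed to 1010 to 1070 CPM in Ctrl sham, 931 to 1010 in KO sham, 807 to 913 in Ctrl TAC and 781 to 907 in KO TAC. Of these, Abcc9, a potassium channel subunit, was called lower in both genotypes (log2 fold changes of -0.64 in Ctrl and -0.78 in KO). Tagln, a contractile protein, was called higher in KO (0.65). Most of the fall of the sum lay in Abcc9, which averaged 415 CPM in Ctrl sham and 381 in KO sham. After TAC it averaged 266 CPM in Ctrl and 222 in KO, and the other 5 markers gave no call in Ctrl. Of 6 lymphocyte markers 5 were tested, and the B cell genes Cd79a, Cd79b and Ms4a1 were called higher in KO, by 0.99, 1.00 and 1.40, with none called in Ctrl. The summed level of the 6 was 0.996 to 1.504 CPM in sham hearts, 1.12 to 1.67 in Ctrl TAC and 1.74 to 2.84 in KO TAC. The endothelial, epicardial and adipocyte lists, with 6, 3 and 1 markers tested, gave no call in either TAC contrast. The 6 Schwann cell markers summed to 7.74 to 9.94 CPM in Ctrl sham and 8.17 to 10.2 in KO sham. After TAC they were at 12.2 CPM in Ctrl TAC 2 and 4.72 to 5.32 CPM in the other Ctrl libraries, with 1 of 6 called lower, and at 3.31 to 4.89 CPM in KO, with 4 of 6 called lower. The neuron markers summed to 6.82 to 7.74 CPM in Ctrl sham, 5.95 to 7.75 in KO sham and 7.34 to 8.68 in KO TAC, where 1 of 4 tested, Stmn2, was called higher (0.31). Slc18a3, the vesicular acetylcholine transporter of cholinergic neurons, had no count in any library. The part of these cell types in the Penk values was not tested, and in bulk tissue fewer cells of a type cannot be told apart from less RNA per cell.

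Of the 3 opioid receptor genes, Oprd1 was the only one counted in every library, Oprk1 was counted in 8 of 16 and Oprm1 in none. Only Oprd1 passed the filter on low counts, so that Penk and Oprd1 were the 2 of 4 genes with a test in the main model. Intervals and limits for these low counts cover counting error only.

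Oprd1 (ENSMUSG00000050511, the delta receptor) lies on the minus strand of chromosome 4 at 132110726 to 132144486 in GRCm38, with 1 annotated transcript and no overlapping gene. It had 30, 28, 18 and 8 counts in Ctrl sham and 10, 18, 19 and 18 in KO sham. After TAC it had 12, 18, 14 and 11 counts in Ctrl and 10, 14, 18 and 9 in KO, the last in the library labelled KO TAC 4. The ranges of the 4 groups overlapped, and the lowest count of all was in a Ctrl sham heart.

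In CPM, Oprd1 averaged 0.329 ± 0.129 in Ctrl sham, 0.279 ± 0.0809 in KO sham, 0.212 ± 0.0473 in Ctrl TAC and 0.190 ± 0.0757 in KO TAC (SD, n = 4 each). By edgeR, the log2 fold change after TAC was -0.65 in Ctrl (SE 0.37, adjusted p = 0.240) and -0.56 in KO (SE 0.38, adjusted p = 0.278). Between genotypes it was -0.26 in sham hearts (SE 0.36, adjusted p = 1.00 by edgeR) and -0.17 after TAC (SE 0.38, adjusted p = 0.867 by edgeR). The difference between the TAC effects was 0.09 (SE 0.53, adjusted p = 0.969 by edgeR). The Ctrl value was -0.79 without Ctrl TAC 2 (adjusted p = 0.196 by edgeR), and the KO value -0.35 without the library labelled KO TAC 4 (adjusted p = 0.544 by edgeR). Neighbouring group means in this order lay closer than the larger of their SDs, and with 8 to 30 counts per library a change of the size of these standard errors was not detectable at this depth.

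Oprk1 (ENSMUSG00000025905, the kappa receptor) lies on the plus strand of chromosome 1 at 5588466 to 5606131, with 5 annotated transcripts and no overlapping gene. It had 2, 0, 2 and 0 counts in Ctrl sham, 4, 0, 0 and 2 in KO sham, 2, 8, 4 and 0 in Ctrl TAC, and 0, 0, 2 and 0 in KO TAC. The highest count was in Ctrl TAC 2, the library with raised nerve and fat genes, and every group had at least 1 library at 0. Its 26 counts in all did not pass the filter. In the fit without that filter, over 36333 genes, its adjusted p by edgeR ran from 0.485 to 0.724 in the contrasts after TAC and was 1.00 between the sham groups.

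Oprm1 (ENSMUSG00000000766, the mu receptor) lies on the plus strand of chromosome 10 at 6758506 to 7038198, with 31 annotated transcripts. It was at 0 counts in all 16 libraries. If each count is a separate fragment, a count of 0 allows up to 3 counts per library. That is 0.0362 to 0.0587 CPM, or 0.0045 to 0.0073 RPKM. The limit is higher if 1 fragment can give more than 1 count. Ipcef1 shares 96 exon bases with it (1.19% of its exon length) and had 6 to 57 counts in each library, while Gm10945 lies within it and shares no exon base. Across all genes, 34.5% had no count in any library, so a gene without counts was common here.

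**Figure D2:**
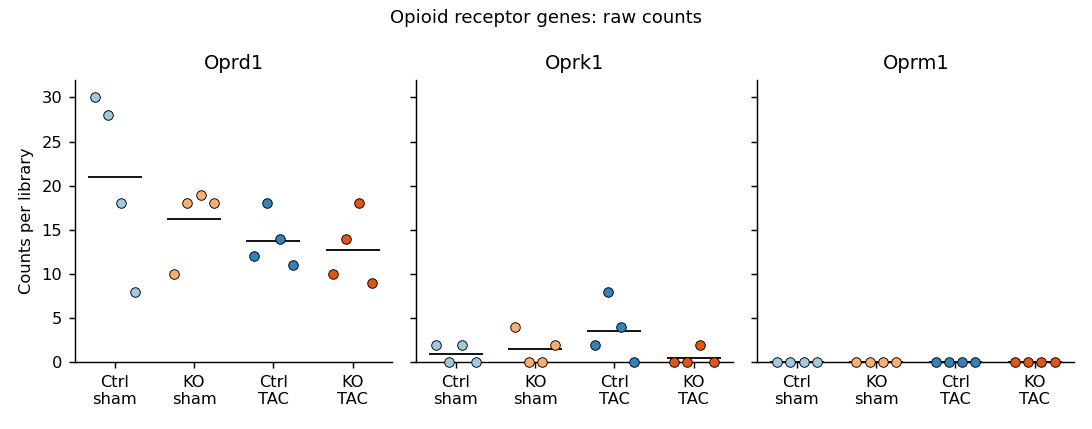
Raw counts per library of Oprd1, Oprk1 and Oprm1 in the 4 groups, with a line at each group's mean. Oprd1 has 8 to 30 counts everywhere with overlapping groups, Oprk1 has 0 to 8, and all 16 Oprm1 points are at 0.

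The smallest counts in this table were more often even than odd. All 8 nonzero Oprk1 counts and 13 of 16 Oprd1 counts were even numbers. Oprd1, with 8 to 30 counts and 1 annotated transcript, is outside the genes and mostly above the values compared next. Over 11551 genes with more than 3 annotated transcripts, 57.6% of the values from 1 to 10 were even. The excess lay at the smallest values. The value 2 occurred 2283 times against 573 for the value 1, and 4 occurred 1547 times against 1368 for 3. It was absent above them, with 1183 for 6 against 1181 for 5 and 957 for 8 against 1028 for 7. One RNA fragment may therefore have given more than 1 count, and 2 counts need not be 2 molecules.

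To place these levels, 20 genes of other organs and 8 receptor genes known in heart, all G protein-coupled except the natriuretic peptide receptor Npr1, were read on the same RPKM scale. The genes of other organs, among them pituitary, pancreatic, retinal and testis genes, had a median of 0.00183 RPKM and at most 0.0733 RPKM, and 6 of 20 were at 0 in all libraries. Oprd1 averaged 0.0628 RPKM. Only Avp, the vasopressin gene, at 0.0733 RPKM, was above it among the genes of other organs, and none had as many counts as the 255 of Oprd1. Oprk1, at 0.00277 RPKM, was exceeded by 7 of those 20 genes. Its level was thus within the range seen for genes that a heart is not known to use.

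The 8 heart receptors all passed the filter and ran from 1.67 RPKM for Adora1, an adenosine receptor that shares 20.1% of its exon length with Mybph, to 17.7 RPKM for Chrm2, the muscarinic receptor of the vagal input. Oprd1 was below each of them, and only 4.87% of the genes that passed the filter had a lower level than Oprd1. The Penk level per kilobase was 56.9 times that of Oprd1 in Ctrl sham and 13.0 times in KO TAC.

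**Figure D3:**
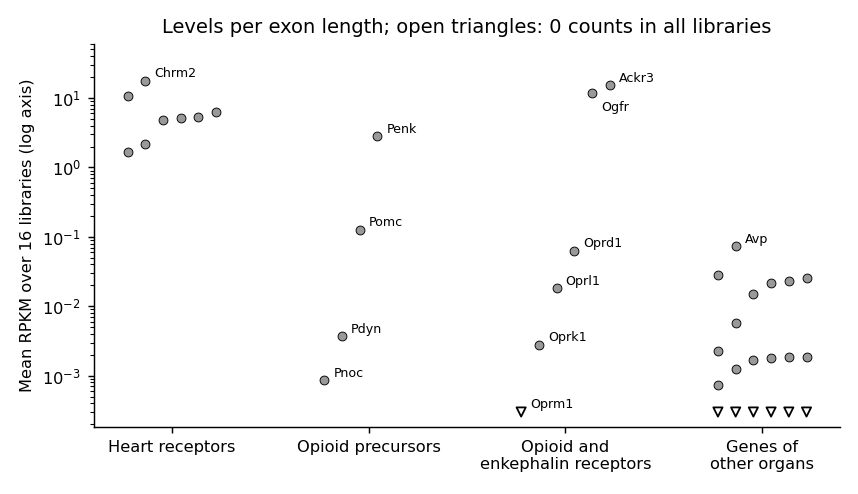
Mean RPKM over 16 libraries on a log axis for receptors known in heart, opioid precursor genes, opioid and enkephalin receptor genes and genes of other organs, with open triangles for genes at 0 counts in all libraries (they have no position on the axis). Oprd1, at 0.0628 RPKM, is below all 8 heart receptors and next to the highest of the 20 genes of other organs.

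Among the other opioid precursors, Pomc, which gives beta-endorphin, was the only one that passed the filter, with 169 counts over 15 libraries. Its log2 fold change after TAC in Ctrl was 0.42 (SE 0.63, adjusted p = 0.706 by edgeR). Pdyn, the dynorphin precursor, had 12 counts in 2 libraries, and Pnoc, the nociceptin precursor, had 2 counts in 1 library. Penk was therefore the main opioid precursor transcript in these hearts, at 2.80 RPKM on average against 0.127 for Pomc.

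Counted without Penk, the opioid pathway lists held 51 genes: precursors, receptors, processing enzymes and granule proteins, peptidases, and signalling partners. Of these, 41 were tested. In Ctrl, 14 of 41 (34.1%) were called after TAC, 10 higher and 4 lower, beside 20.0% of all genes tested, 10.4% higher and 9.60% lower. In KO, 21 of 41 (51.2%) were called, 12 higher and 9 lower, beside 34.3% of all genes. The median log2 fold change of the 41 was 0.09 in Ctrl and -0.03 in KO, beside 0.0043 and -0.0039 over all genes, so the lists did not move in one direction. The Ctrl count fell to 7 without Ctrl sham 1 and to 9 without Ctrl sham 4. The share of all genes called in those fits is not given here.

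**Figure D4:**
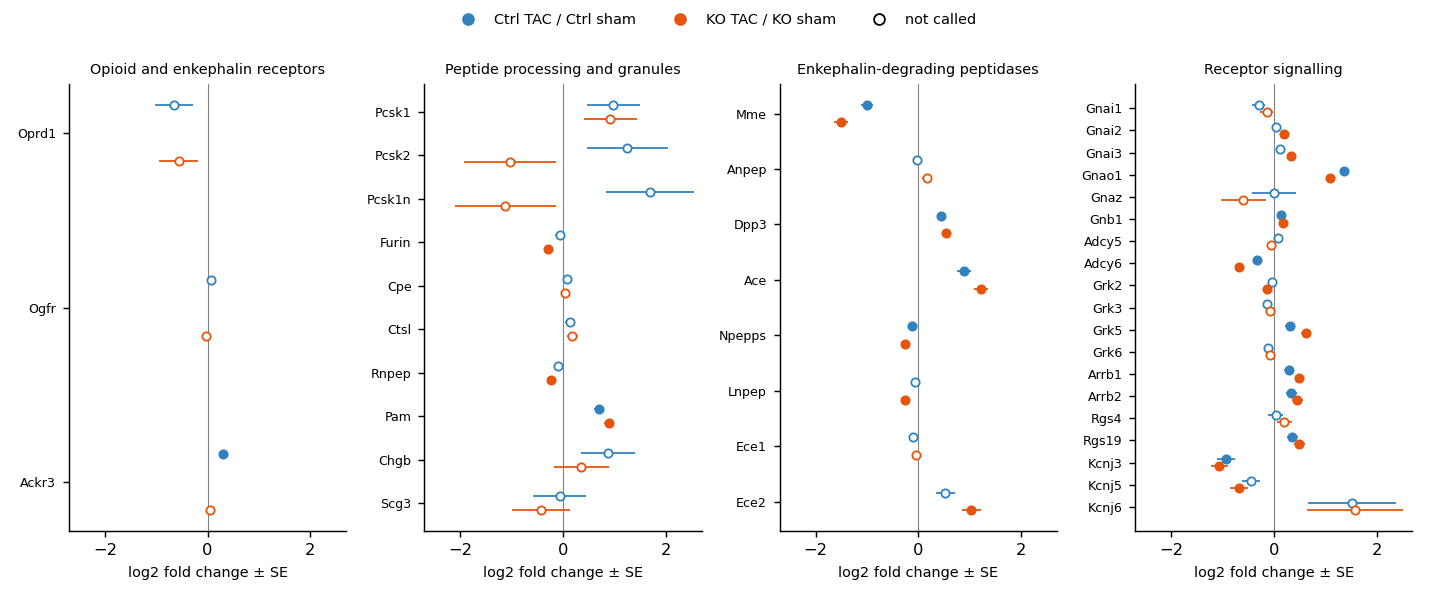
Log2 fold change ± SE after TAC of the tested opioid pathway genes other than the precursors, in Ctrl and KO hearts. Filled points were called at an adjusted p under 0.05 by edgeR, and the peptidases show calls in both directions, with Mme lower and Ace and Dpp3 higher.

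Receptors that bind enkephalins outside the classical family were well expressed. Ackr3, an atypical chemokine receptor that scavenges opioid peptides, was at 15.3 RPKM, and Ogfr, the nuclear opioid growth factor receptor for Met-enkephalin, at 11.7 RPKM. Ackr3 rose by 0.30 in Ctrl TAC on the log2 scale (SE 0.08, adjusted p = 0.0162 by edgeR), a call that was lost without Ctrl sham 1, Ctrl sham 3 or Ctrl TAC 3 and when a term for the animal-number series was added. In KO its log2 fold change was 0.05 (adjusted p = 0.670 by edgeR). Ogfr had log2 fold changes of 0.06 in Ctrl and -0.04 in KO, with no call. Of the 6 genes in this list 3 were tested, and Oprl1, the nociceptin receptor, had 71 counts in 13 libraries and did not pass the filter.

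Among 13 genes of peptide processing and granules, 10 were tested. Pam, which amidates the end of many peptide hormones and is abundant in heart, was the only one called in Ctrl, higher by 0.69 (SE 0.09, adjusted p = 4.86e-05 by edgeR), and it was higher by 0.90 in KO (adjusted p = 1.13e-06 by edgeR). Furin, a convertase of the secretory pathway, and Rnpep, an aminopeptidase that trims basic residues, were called lower in KO, with log2 fold changes of -0.29 and -0.23. Both lost that call without KO sham 3 and with a term for animal numbers starting with 33, and Furin also without KO sham 1 or KO TAC 2. Cpe, the carboxypeptidase that removes the basic residues from enkephalin ends, was the highest of the list at 93.7 RPKM and gave no call, with log2 fold changes of 0.09 and 0.05.

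The convertases and granule proteins of neuroendocrine cells were scarce. Pcsk1 and Pcsk2, the convertases that cut Penk in such cells, averaged 0.0318 and 0.0238 RPKM. Pcsk1n, an inhibitor of Pcsk1, averaged 0.543 CPM in Ctrl TAC, of which 1.85 CPM was in Ctrl TAC 2 alone and 0.0304 to 0.176 CPM in the other Ctrl TAC libraries. Chgb, a granule protein, likewise was at 1.84 CPM in Ctrl TAC 2 and at 0.258 to 0.46 CPM in the other Ctrl TAC libraries. These high values came from the library with the raised neuron marker sum, and none of the genes was called.

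The enkephalin-degrading peptidases changed in both directions, with 4 of 8 called in Ctrl and 6 of 8 in KO, beside 20.0% and 34.3% of all genes. Mme (neprilysin), the membrane enzyme that cleaves enkephalins and natriuretic peptides, averaged 14.5 ± 2.13 CPM in Ctrl sham, 12.6 ± 1.95 in KO sham, 7.24 ± 1.04 in Ctrl TAC and 4.44 ± 0.457 in KO TAC (SD, n = 4 each). The lowest sham heart was at 11.4 CPM and the highest TAC heart at 8.61 CPM, so that sham and TAC did not overlap. Mme fell by 1.00 on the log2 scale in Ctrl (SE 0.13, adjusted p = 2.09e-05 by edgeR) and its log2 fold change in KO was -1.51 (SE 0.13, adjusted p = 1.02e-07 by edgeR). Both calls held under every alternative run.

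KO TAC hearts also had less Mme than Ctrl TAC hearts, and the log2 difference was -0.71 (SE 0.13, adjusted p = 0.0131 by edgeR) where 2.68% of all genes were called, 1.32% lower. Under the labels as given, the 2 groups did not overlap. The lowest Ctrl TAC heart was at 6.28 CPM and the highest KO TAC heart at 4.89 CPM. That call was lost without KO TAC 3, without the pair Ctrl TAC 2 and the library labelled KO TAC 4, and when a term for the animal-number series was added. The largest adjusted p among these was 0.104 by edgeR. The interaction itself was -0.51 (SE 0.18, adjusted p = 0.311 by edgeR).

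Dpp3, a cytosolic dipeptidyl peptidase that degrades enkephalins and angiotensins, rose by 0.44 in Ctrl (SE 0.07, adjusted p = 0.000259 by edgeR) and by 0.54 in KO (adjusted p = 1.68e-05 by edgeR). Ace, angiotensin-converting enzyme, which also cuts enkephalins, rose by 0.88 in Ctrl (SE 0.13, adjusted p = 0.000256 by edgeR) and by 1.22 in KO (adjusted p = 5.68e-06 by edgeR). Its exons share 5.58% of their length with the antisense gene Gm11651. Ace thus went up in the hearts where Mme went down, from 62.9 ± 11.2 to 116 ± 19.8 CPM in Ctrl and from 57.3 ± 5.41 to 133 ± 16.95 CPM in KO (SD, n = 4 each).

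The other peptidases moved less. Npepps, a cytosolic aminopeptidase, was called lower in both genotypes, with log2 fold changes of -0.13 in Ctrl and -0.26 in KO, and the Ctrl call was lost under 10 of 23 alternatives. Lnpep, a membrane aminopeptidase, was called lower in KO, at -0.26, and stood at -0.07 in Ctrl without a call. Ece2 was called higher in KO by 1.03 and was at 0.52 in Ctrl (adjusted p = 0.0578 by edgeR), but 57.5% of its exon length is shared with Gm49333, so its values are uncertain. Anpep, another enkephalin-cutting aminopeptidase, and Ece1 gave no call.

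Among 21 genes of opioid receptor signalling, 19 were tested and 8 were called in Ctrl and 12 in KO, beside 20.0% and 34.3% of all genes. Gnao1, the alpha subunit of the inhibitory G protein Go, rose by 1.36 in Ctrl (SE 0.07, adjusted p = 2.15e-09 by edgeR) and by 1.10 in KO (SE 0.07, adjusted p = 3.63e-09 by edgeR). It went from 20.3 ± 1.29 CPM to 52.1 ± 4.65 CPM in Ctrl (SD, n = 4 each), with no overlap. Gnai2 and Gnai3, alpha subunits of Gi, were called higher in KO, by 0.19 and 0.34, and gave 0.04 and 0.12 in Ctrl without a call. Gnai3 was also called higher in KO TAC than in Ctrl TAC, by 0.27, a call that was lost under 17 of 22 alternatives, 14 of them single libraries left out.

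Adcy6, an adenylyl cyclase that Gi inhibits, fell by 0.32 in Ctrl (SE 0.07, adjusted p = 0.00188 by edgeR) and by 0.68 in KO (adjusted p = 3.95e-07 by edgeR). In KO TAC it was lower than in Ctrl TAC, with a log2 fold change of -0.30, a call that was lost without Ctrl TAC 2 and without KO TAC 1, 2 or 3 in turn. Its exons share 8.92% of their length with the antisense gene Gm29331. Kcnj3, a subunit of the potassium channel that Gi proteins open, fell by 0.93 in Ctrl (SE 0.17, adjusted p = 0.00139 by edgeR) and by 1.06 in KO (adjusted p = 0.00024 by edgeR), with 31.1% of its exon length shared with Gm26794. Kcnj5, its partner subunit, was called lower in KO, at -0.68, and stood at -0.44 in Ctrl (adjusted p = 0.09 by edgeR).

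The kinase Grk5 and the arrestins Arrb1 and Arrb2, which switch off active receptors, were called higher in both genotypes. Their log2 fold changes were 0.31, 0.29 and 0.34 in Ctrl and 0.63, 0.50 and 0.46 in KO. Rgs19, which speeds the turn-off of Gi, was called higher by 0.36 in Ctrl and 0.50 in KO, and Gnb1, a beta subunit, by 0.13 and 0.19. The Ctrl calls of these 5 genes were each lost without Ctrl sham 1, and those of Grk5, Arrb1, Arrb2 and Rgs19 also without Ctrl sham 4. Of 23 alternatives, 3 ended the Ctrl call of Grk5, 8 that of Arrb1, 3 that of Arrb2, 8 that of Rgs19 and 17 that of Gnb1. Pam, Furin, Rnpep, Npepps, Gnao1 and Arrb2 also share exon bases with a neighbouring annotated gene, 0.43% to 5.27% of their exon length. Grk2, the main receptor kinase of heart, was called lower in KO, at -0.14 on the log2 scale, a call lost under 14 of 22 alternatives.

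Between KO sham and Ctrl sham hearts, none of the 41 tested pathway genes was called by edgeR or by DESeq2, and 0 had an unadjusted edgeR p under 0.05. Over all 18275 genes edgeR likewise called 0 in this contrast, and 2.62% had an unadjusted p under 0.05. Between KO TAC and Ctrl TAC, 3 of 41 (7.32%) were called, Gnai3 higher and Mme and Adcy6 lower, beside 2.68% of all genes. No interaction was called by edgeR among them, beside 0.0109% of all genes, and 8 of 41 had an unadjusted p under 0.05, as did 11.1% of all genes. DESeq2 called 1 interaction, that of Adcy6. Without the library labelled KO TAC 4, edgeR called 12 genes in Ctrl, 20 in KO and 3 between the TAC groups, Gnai3 not among the last. These counts have no share of all genes from the same fit beside them. With that library left out, the log2 fold changes in KO were -1.50 for Mme, 1.26 for Ace, 0.94 for Pam, 0.53 for Dpp3, 1.06 for Gnao1, -0.69 for Adcy6 and -1.15 for Kcnj3. With Ctrl TAC 2 left out, those in Ctrl were -1.02, 0.90, 0.72, 0.44, 1.38, -0.39 and -0.98 for the same 7 genes in the same order, and all 7 were still called in both cases.

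The genes whose levels followed Penk most closely over the 16 libraries were Stard10 (Pearson r = 0.991), Ces1d (0.991), Col6a6 (0.989), Isoc2a (0.985) and Rtn2 (0.983), on log2 CPM. The most opposite were Fgl2 (-0.988), F2r (-0.987), Lox (-0.985), Msn (-0.985) and Wdr1 (-0.981). Stard10 binds phospholipids, Ces1d is a carboxylesterase of lipid metabolism, and Col6a6 a collagen chain, while F2r is the thrombin receptor, Lox crosslinks collagen, and Msn and Wdr1 act on the actin cortex. These are descriptions over libraries that fall into a sham and a TAC cluster, and 541 of 10161 genes had an r above 0.9 and 459 an r below -0.9. After removal of the 4 group means, the r of the 5 most alike genes was 0.816 to 0.931. That of the 5 most opposite was -0.843 to -0.763. These genes were picked by an r that includes this within-group part, so the residual values are not independent of the choice. Of the 5 highest by Pearson, 4 were among the 5 highest by this residual measure and 0 among the 5 highest by Spearman rank correlation. Of the 5 lowest by Pearson, 1 was among the 5 lowest by each of these other measures.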

How the data were processed

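The authors deposited raw counts per Ensembl gene, 1 column per mouse, with no normalization. Per the labels and the submitters' processing notes, reads were trimmed with cutadapt 2.3, checked with FastQC and aligned with HISAT2 2.1.0 to GRCm38, and edgeR 3.26.1 was listed. The counting program, its annotation, its use of strand and whether a count is a read or a pair are not given in the sources used here. These choices decide how reads of overlapping genes are split and how small counts behave.

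Columns were matched to samples by animal number. Replicate numbers follow sample order and pair nothing. Symbols, positions and union exon lengths came from GENCODE M21 (GRCm38), which held 55227 (99.5%) of the identifiers. In edgeR 4.0.16 (R 4.3.3), filterByExpr kept 18275 genes, libraries were TMM-scaled, and 1 robust quasi-likelihood model with a mean per group was fitted to all 16 libraries. Adjusted p-values are Benjamini-Hochberg over all 18275 genes, and an SE is the log2 fold change over the root of F. RPKM is CPM per kilobase of exon. The fit was tested on simulated data.

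The gene members and gene lists were chosen with earlier results of these data known. Penk was tested only in Ctrl TAC against Ctrl sham. Named genes were the 4 members, list genes called in a contrast or highest in their list (at most 5 a list), genes overlapping a member, and the 5 most and 5 least alike in log2 CPM (prior count 2) among genes whose log2 CPM averaged 2 or more and with a symbol that is not a Gm or Rik name. The receptor signalling and peptidase lists exceed 5 where more were called. Pcsk1, Pcsk2, Pcsk1n, Chgb, Anpep and Ece1 were named after their values were seen, as the genes of those lists without a call. Alternatives were DESeq2 1.42.0, its size factors in edgeR, no filter beyond 1 count, animal-number terms, the 8 Ctrl libraries alone, Ctrl TAC 2 and KO TAC 4 left out together, and each library left out in turn. The animal numbers of Ctrl TAC 2, 3 and 4 and KO TAC 4 start with 25 and those of the other 12 with 3. What these series mean is not given in the labels. One gene of the heart receptor list is not reported here.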

Additional observations from a re-analysis of the deposited data

Results flagged for a closer look

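In 3 of 16 groups of 4 libraries examined for Penk, Oprd1, Oprk1 and A830012C17Rik, 1 library lay apart from the other 3, by a gap that took up most of the group's range and was above Dixon's 95% critical value. Chance gives about 1 such group in 20 for continuous, normally distributed values. That rate does not hold for Oprk1 and A830012C17Rik, where any group with only 1 nonzero library is flagged. Oprd1 was at 0.158 CPM in KO sham 1 and at 0.315 to 0.327 CPM in the other KO sham libraries. Oprk1 was at 0.0307 CPM (2 counts) in KO TAC 3 and at 0 in the other KO TAC libraries, and A830012C17Rik was at 0.0152 CPM (1 count) in Ctrl TAC 3 and at 0 in the other Ctrl TAC libraries, so that both rest on 1 or 2 counts. No Penk value lay apart in this way.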

How the results depend on the processing

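The fall of Penk in Ctrl TAC against Ctrl sham kept its direction and its call under all 23 alternatives, with a log2 fold change of -1.88 to -1.50 and an adjusted p from 1.95e-13 (DESeq2) to 0.000872 (edgeR with a term for the animal-number series). The series term is set in part by KO TAC libraries, whose Penk values the choice of the gene used. With single libraries left out the log2 fold change of Penk was -1.83 to -1.50. Oprd1 was called under none of them, and the calls of Pam, Mme, Dpp3, Ace, Gnao1, Adcy6 and Kcnj3 after TAC held under all alternatives in both genotypes. The number of pathway genes other than Penk called in Ctrl ranged from 7 to 14 with single libraries left out, against 14. Between KO TAC and Ctrl TAC, where 3 were called, DESeq2 called 8, a fit with that series term 0, and a fit that left out both Ctrl TAC 2 and KO TAC 4 0. Single libraries left out gave 0 to 5 there: 5 without Ctrl TAC 1, 1 without Ctrl TAC 2, KO TAC 1 or KO TAC 2, and 0 without KO TAC 3. DESeq2 called 1 interaction against 0. The share of all genes called is given for the main fit only, so the counts under the alternatives have no such share beside them. The cause of these changes was not tested. No paired analysis was possible because the groups share no replicate numbers in the labels. Levels of Oprk1 and Oprm1 are limited by depth, since a count of 0 allows 0.0362 to 0.0587 CPM. The limit is higher if 1 fragment can give more than 1 count.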
